A study of Arabidopsis thaliana with 12 samples.

Results

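OCT1 (AT1G73220) and NRT2.5 (AT1G12940) are 2 genes for membrane transporters on chromosome 1 of Arabidopsis thaliana, out of 16550 genes that could be read as single genes on the arrays. They were chosen by locus, with their levels in these groups already known, so those levels are given as a description and carry no test. Each gene had 1 probe set, and no other row of the table listed either of them together with another gene. The arrays measured total RNA of whole roots of the Col-0 accession, grown in hydroponic culture for 32 days and then treated for 7 days, so that all plants were 39 days old. The 4 groups of 3 arrays were roots given 250 µM arsenate (Na2HAsO4) in hypoxic nutrient medium (combination), roots in hypoxic medium (hypoxia), roots given 250 µM arsenate alone (arsenic) and untreated roots (control). The oxygen content of the hypoxic medium and the nitrogen and phosphate supply were not given in the sources used here. The series text calls the replicates of a treatment completely independent biological ones.

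OCT1 belongs to the organic cation/carnitine transporters, proteins of the major facilitator superfamily that move carnitine and other small cations across membranes. NRT2.5 is a high-affinity nitrate transporter, which couples nitrate uptake to protons at low external nitrate. It is known for its rise in roots that have been starved of nitrogen for long, where it sits in the outer cell layers, and it works with the partner protein NRT3.1. Nitrate-induced repressors of the NIGT1 type are known to hold genes of the NRT2 family down. Arsenate, the oxidised form of arsenic, is taken up by roots through phosphate transporters.

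The labels were checked on 9 measured genes of the core hypoxia response. Of these, 8 rose in the combination (13.0% of all genes rose) and 9 under hypoxia (10.8%), while with arsenate 1 rose (AlaAT1, 8.34%) and 1 fell (AT4G27450, 9.58%), both named after their values were seen. The fermentation gene PDC2 (AT5G54960) rose by 2.13 in the combination (adjusted p = 1.39e-05) and by 2.20 under hypoxia (adjusted p = 1.73e-05), and stood at 0.08 with arsenate (adjusted p = 0.864). CML38 (AT1G76650), a calmodulin-like protein gene of the low-oxygen response, read 6.68, 6.42 and 6.95 in combination roots, 7.87, 8.22 and 7.91 in hypoxia roots, 3.03 to 5.05 in arsenic roots, and 7.55, 4.88 and 3.94 in control roots. Control array 1 thus stood above every combination array in CML38, which was so in 1 of the 9 genes, and it lay above the lowest hypoxia array in 0 of the 9. Without control array 1, the difference with arsenate was 3.28 in place of 3.25 for OCT1 and 2.19 in place of 2.20 for NRT2.5, and the interaction was -3.70 and -3.19. Array medians ran from 4.72 to 4.99 log2 units, and correlations between arrays of a group from 0.972 to 0.991.

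OCT1 was high in 1 group of the 4. Its log2 signal was 3.44, 3.69 and 3.48 in combination roots, 4.10, 3.79 and 3.97 in hypoxia roots, 6.76, 6.87 and 6.84 in arsenic roots, and 3.63, 3.38 and 3.70 in control roots. All 3 arsenic arrays thus stood far above the other 9 arrays, and the lowest of them lay 2.66 log2 units above the highest array of any other group. The combination arrays lay among the control arrays, and the hypoxia arrays lay just above the control arrays without overlap. As group means, the log2 signal was 3.54 ± 0.13 in combination roots, 3.95 ± 0.16 in hypoxia roots, 6.82 ± 0.06 in arsenic roots and 3.57 ± 0.17 in control roots (SD, n = 3 each). In order from the highest mean the groups ran arsenic, hypoxia, control and combination, where control and combination did not differ beyond their spread.

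NRT2.5 was above the control in all 3 treatments, and its arrays were more spread. Its log2 signal was 4.99, 4.41 and 4.06 in combination roots, 5.31, 5.02 and 6.12 in hypoxia roots, 6.12, 4.48 and 5.92 in arsenic roots, and 3.28, 3.07 and 3.55 in control roots. Every treated array lay above every control array, by at least 0.50 log2 units. Arsenic array 2 stood apart from the other 2 arsenic arrays, down among the combination arrays. As group means, the log2 signal was 4.48 ± 0.47 in combination roots, 5.48 ± 0.57 in hypoxia roots, 5.50 ± 0.89 in arsenic roots and 3.30 ± 0.24 in control roots (SD, n = 3 each). Arsenic and hypoxia, at the top of the order, did not differ beyond their spread, and the combination arrays overlapped the arsenic arrays. Between the combination and hypoxia arrays there was no overlap, but the gap was 0.03 log2 units.

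**Figure D1:**
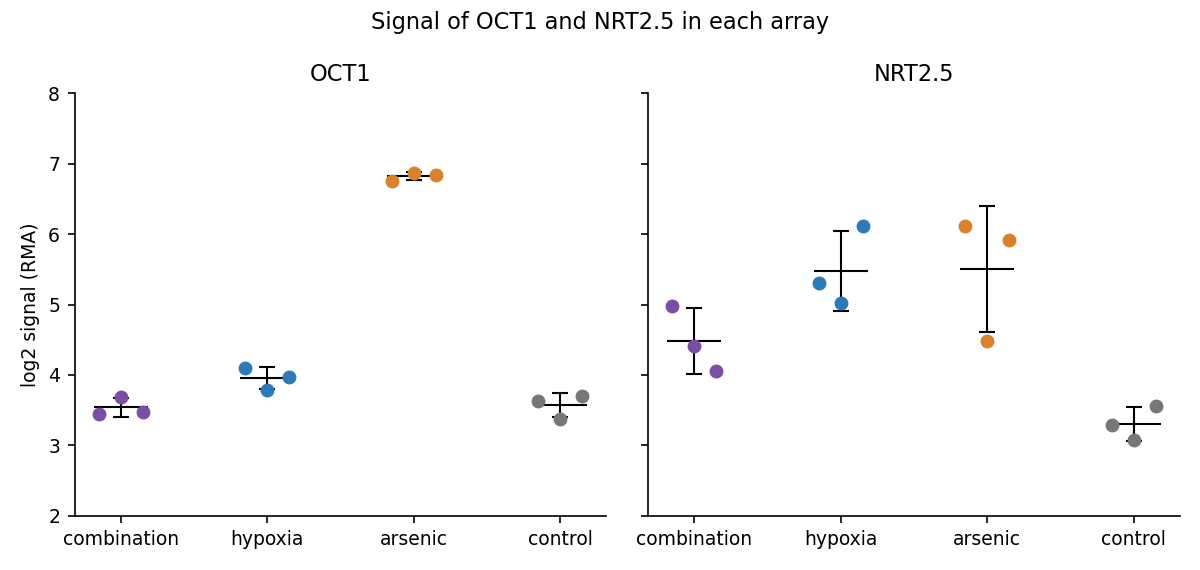
Each point is the log2 signal of OCT1 (left) or NRT2.5 (right) in 1 array, by group, with the group mean as a dash and its SD as a bar (n = 3). The 3 arsenic arrays of OCT1 lie between 6.76 and 6.87, above all other arrays, whereas for NRT2.5 the combination, hypoxia and arsenic arrays all lie above the control arrays.

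Set against all 38408 rows of the same array, OCT1 moved from the lower part of the range to the upper part with arsenate alone. In the combination arrays 29.3% to 33.2% of the rows were below it, in the hypoxia arrays 34.7% to 40.2%, in the arsenic arrays 73.9% to 74.6%, and in the control arrays 29.8% to 34.3%. The share of rows below NRT2.5 was 38.8% to 52.7% in the combination arrays, 53.3% to 66.8% in the hypoxia arrays, 44.1% to 65.9% in the arsenic arrays and 25.2% to 32.3% in the control arrays. Both genes thus sat in the lower part of the range in control roots, where their fold changes against control start.

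Against control roots, the mean of OCT1 was 9.54-fold higher with arsenate alone (log2 difference 3.25, SE 0.14). Hypoxia alone gave a difference of 0.38 (SE 0.14), a 1.31-fold higher mean. The combination gave -0.03 (SE 0.14). Ranked among the 16550 genes, the rise with arsenate was the 37th largest, and 622 genes (3.76%) had all arsenic arrays above the other 9. In 30 of all genes (0.181%) that gap was at least 1 log2 unit, as it was in OCT1.

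For NRT2.5 the means were 4.60-fold higher than control with arsenate alone (log2 difference 2.20, SE 0.40) and 4.53-fold higher with hypoxia alone (2.18, SE 0.40). The combination gave a 2.27-fold higher mean (1.18, SE 0.40), which was the smallest of the 3 differences. These 3 differences share the control arrays. All treated arrays lay above the control arrays in 1060 genes (6.4%), NRT2.5 among them. The arrays of a single treatment lay above the control arrays without overlap in 23.8% of genes in the combination, 20.5% under hypoxia and 18.4% with arsenate, so such a separation was common. Nothing is read from these shares about OCT1 and NRT2.5, whose levels were known when they were chosen.

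The second question of the design is what happens when both stresses meet. The mean of OCT1 was lower in the combination than with arsenate alone by 3.28 log2 units (difference -3.28, SE 0.14), with the combination arrays 3.07 units below the arsenic arrays, which was the 17th largest fall of 16550. Against hypoxia alone, the combination stood at -0.41 (SE 0.14), and its arrays lay 0.10 units below the hypoxia arrays. Arsenate thus went with a higher OCT1 signal in roots that were not hypoxic and with a slightly lower one in hypoxic roots. Arrays on opposite sides in this way (arsenic above control, combination below hypoxia) were seen in 76 genes (0.459%).

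The same comparisons gave smaller steps in NRT2.5. The combination stood at -1.02 (SE 0.40) against arsenate alone, with overlapping arrays, and at -0.997 (SE 0.40) against hypoxia alone. Between hypoxia and arsenate the difference was -0.02 (SE 0.40) for NRT2.5 and -2.87 (SE 0.14) for OCT1. Arrays of the 2 groups overlapped for NRT2.5, while for OCT1 the hypoxia arrays lay 2.66 below the arsenic arrays. Hypoxia arrays lay below arsenic arrays by any gap without overlap in 18.5% of all genes. The share of all genes with the combination arrays below without overlap was 14.4% against arsenic and 9.21% against hypoxia.

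If the 2 single changes had added up on the log2 scale, the combination would have stood 3.64 above control for OCT1 and 4.38 above control for NRT2.5, where -0.03 and 1.18 were measured. The interaction, which is the combination minus arsenic minus hypoxia plus control, was accordingly -3.67 (SE 0.20) for OCT1 and -3.20 (SE 0.57) for NRT2.5. These were the 18th and 27th lowest of 16550 genes. Both values describe the pattern that brought the genes forward and were not tested.

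**Figure D2:**
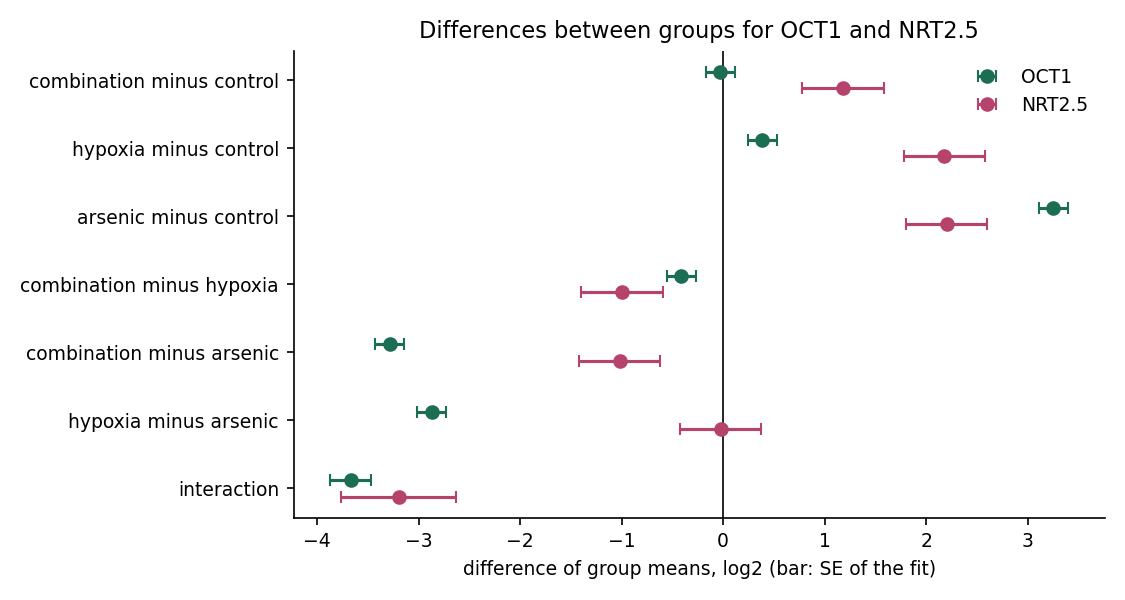
Points are differences between group means in log2 units, with the SE of the fit over all arrays as bars, for OCT1 and NRT2.5. The interaction is negative for both (-3.67 and -3.20), and OCT1 shows its rise with arsenate alone (3.25) and not in the combination (-0.03).

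Of the organic cation/carnitine family, 2 of the other 5 members had a row of their own, OCT4 and OCT5. OCT5 (AT1G79410) read 5.93, 5.16 and 5.37 in combination roots, 5.36, 4.46 and 4.41 in hypoxia roots, 5.80, 5.69 and 6.16 in arsenic roots, and 4.70, 5.07 and 5.18 in control roots. It rose with arsenate by 0.90 (SE 0.27, limma adjusted p = 0.0351), in a comparison where 8.34% of all genes rose and 9.58% fell. That call was lost without arsenic array 1 or 3 and without any 1 of the 3 control arrays (differences 0.76 to 1.00, adjusted p = 0.0543 to 0.134). In the combination OCT5 stood at 0.51 (SE 0.27, adjusted p = 0.184) against control. Under hypoxia it was lower than with arsenate by 1.14 (difference -1.14, SE 0.27, adjusted p = 0.00971), and its interaction did not pass (-0.15, adjusted p = 0.886). OCT4 (AT3G20660) passed in none of the 7 comparisons by limma, and had an unadjusted p under 0.05 in 3 of them, with -0.54 (SE 0.24, adjusted p = 0.152) for arsenate against control. Carnitine also crosses the mitochondrial membrane, but the carrier gene BOU entered for that step had no row of its own.

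NRT2.5 was the one measured gene of its own family, since none of the 8 other entries for NRT2 genes and their NRT3 partners had a row of its own. The other large nitrate transporter family, NRT1/NPF, carries nitrate at lower affinity, along with peptides, hormones and glucosinolates. It was represented by 19 genes, 13 of them named so in the gene table and 6 loci entered in the list without such a name there. Against control, 10 of the 19 fell in the combination and 0 rose by limma (median difference -0.65). In that comparison 14.6% of all genes fell and 13.0% rose by limma, and the median of all genes was 0.09. At an unadjusted p under 0.05, 12 of the 19 fell and 0 rose. The shares of all genes are at the adjusted threshold throughout, so the unadjusted counts have no share to be set against. Under hypoxia 10 fell and 1 rose (median -0.68), where 13.7% of all genes fell, 10.8% rose and the median of all genes was 0.07. With arsenate 10 fell and 0 rose, with 11 and 0 at an unadjusted p under 0.05 (median -0.69, against -0.01 over all genes), where 9.58% of all genes fell and 8.34% rose. The family thus stood mostly below control in each treatment, on the other side from NRT2.5, and its differences against control ran from -1.75 to 0.61 over the 3 treatments.

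NAXT1 (AT3G45650, NPF2.7), which exports nitrate from root cells, fell by 0.99 in the combination (SE 0.20, adjusted p = 0.00255) and by 1.26 with arsenate (adjusted p = 0.000912), while its fall of 0.71 under hypoxia (adjusted p = 0.0218) was lost in 5 of 13 alternatives. NPF6.2 (AT2G26690) fell by 1.75 in the combination (adjusted p = 5.10e-05), and stood at -1.70 under hypoxia (adjusted p = 9.29e-05) and at -0.58 with arsenate (adjusted p = 0.0749). The glucosinolate transporter GTR2 (AT5G62680, NPF2.11) fell by 0.65 in the combination (adjusted p = 0.0111) and by 1.07 with arsenate (adjusted p = 0.000824). Its fall of 0.51 under hypoxia (adjusted p = 0.0435) was lost in 8 of 13 alternatives. NPF4.2 (AT3G25280) was the 1 member that rose, by 0.61 under hypoxia (adjusted p = 0.0246), a call lost in 5 of 12 alternatives. It was dim, with means of 3.46 in hypoxia and 2.85 in control roots, where the first quartile of the arrays ran from 3.06 to 3.18. Some members that fell were dim too, among them AT1G22550 and AT3G45680, with group means from 1.96 to 3.85. NPF5.13, NPF5.14 and loci AT1G72130 and AT1G72140 lie close together and may share probe sequence as paralogs, which was not tested.

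The treatments were also compared with each other. In the combination against arsenate 1 member rose and 3 fell, where 5.33% of all genes rose and 6.67% fell. The riser was NPF4.4 (AT1G33440), which stood at 0.93 in that comparison (adjusted p = 0.00608) and at -0.85 with arsenate against control (adjusted p = 0.00769). In the combination against hypoxia 0 of 19 passed by limma, where 3.46% of all genes passed. At an unadjusted p under 0.05 there were 3, all lower, and no share of all genes is given at that threshold. Under hypoxia against arsenate 6 rose and 3 fell, where 9.67% of all genes rose and 12.3% fell. The calls of NPF4.4 and NPF6.2 held in every alternative, while the others were each lost in 3 to 8 of 12 or 13. The interaction passed in 2 members, both positive, where 1.34% of all genes passed in that direction, while the interaction of NRT2.5 was negative (-3.20).

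Of the 26 regulators of the nitrate and nitrogen starvation responses in the list, 6 were measured. Against control 2 fell in the combination (14.6% of all genes fell), 2 under hypoxia (13.7%) and 3 with arsenate (9.58%). No member rose against control by limma, and 1 did in the combination at an unadjusted p under 0.05. This was AT3G60320, at 0.57 (limma adjusted p = 0.0535), which passed in 7 of 13 alternatives. It was also higher in the combination than with arsenate, by 0.71 (adjusted p = 0.0389), a call lost in 6 of 13 alternatives. The falls were all in the 3 measured loci of the 4 entered as NIGT1-type repressors. Locus AT3G25790 of that group read 4.17, 4.24 and 4.55 in combination roots, 3.74, 6.25 and 6.18 in hypoxia roots, 4.95, 5.95 and 5.63 in arsenic roots, and 8.28, 8.46 and 8.37 in control roots. Every treated array was thus more than 2 log2 units below the control arrays, the reverse side from NRT2.5. It fell by 4.05 in the combination (SE 0.51, adjusted p = 7.99e-05), by 2.98 under hypoxia (adjusted p = 0.00109) and by 2.86 with arsenate (adjusted p = 0.00199), and all 3 calls held in each of 13 alternatives. The mean of AT3G25790 was lowest in the combination, but hypoxia array 1 (3.74) lay below every combination array. By limma the combination did not pass against hypoxia (-1.07, adjusted p = 0.280) or against arsenate (-1.19, adjusted p = 0.163). NRT2.5 had its smallest difference from control in the combination (1.18, against 2.18 under hypoxia and 2.20 with arsenate), where its arrays overlapped the arsenic arrays. A link between the 2 genes was not tested.

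AT1G68670 fell by 1.03 in the combination (adjusted p = 0.000239), by 0.57 under hypoxia (adjusted p = 0.0145) and by 0.52 with arsenate (adjusted p = 0.0293), the last 2 lost in 2 and 5 of 13 alternatives. AT1G25550 fell with arsenate alone by 0.75 (adjusted p = 0.00510), and stood at -0.23 in the combination and -0.07 under hypoxia. The interaction passed for 0 of the 3 loci by limma, where 1.34% of all genes passed upwards. It was positive at an unadjusted p under 0.05 for 2, and no share of all genes is given at that threshold. For AT3G25790 the interaction was 1.79 (SE 0.72, adjusted p = 0.232).

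Polyamines are organic cations, and 5 of 23 entries for their synthesis, transport and oxidation were measured. Locus AT1G31710, entered as a copper amine oxidase, fell by 4.05 in the combination (SE 0.16, adjusted p = 1.10e-08), by 3.02 under hypoxia (adjusted p = 2.26e-07) and by 1.95 with arsenate (adjusted p = 1.23e-05). CuAO1 (AT1G62810), an enzyme that oxidises polyamines, fell under hypoxia by 0.76 (adjusted p = 0.0297) and with arsenate by 0.74 (adjusted p = 0.0429), both lost in 5 or more of 13 alternatives. Locus AT2G42490, another copper amine oxidase entry, rose with arsenate by 0.63 (adjusted p = 0.02), lost in 4 of 13 alternatives. The other 2 measured entries did not pass in any of the 7 comparisons by limma, nor at an unadjusted p under 0.05.

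Of 37 entries for phosphate uptake and phosphate starvation, 2 were measured. WRKY6 (AT1G62300), a transcription factor that represses the phosphate exporter gene PHO1, rose in the combination by 1.25 (SE 0.21, adjusted p = 0.000758), under hypoxia by 1.03 (adjusted p = 0.00378) and with arsenate by 1.16 (adjusted p = 0.00237). Its interaction did not pass (-0.94, adjusted p = 0.129). AT1G63010 fell under hypoxia by 0.74 (adjusted p = 0.0424), a call lost in 8 of 13 alternatives. The lists for nitrogen assimilation and for ammonium, urea and amino acid uptake had no measured gene, so the state of those pathways was not analysed here.

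Among the 439 genes with a symbol whose group means spanned at least 1 log2 unit, those most like OCT1 over the 12 arrays were GSTL3 (r = 0.946), NDB2 (r = 0.923), GR1 (r = 0.922), GSTU25 (r = 0.919), AGL19 (r = 0.914) and UGT73B2 (r = 0.913). GSTL3 is a lambda-class glutathione transferase, NDB2 an external NAD(P)H dehydrogenase of mitochondria, GR1 a glutathione reductase, and AGL19 a MADS-box factor. NDB2 read 7.49, 7.61 and 7.42 in combination roots, 7.62, 6.60 and 6.32 in hypoxia roots, 10.08, 9.48 and 10.09 in arsenic roots, and 7.29, 7.23 and 7.04 in control roots. As in OCT1, the arsenic arrays lay above the rest. These r values are descriptions, since the arrays share groups. With the group means removed, r between OCT1 and the 6 genes ran from -0.18 to 0.48, and Spearman's rho over the arrays from 0.47 to 0.77.

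The genes most like NRT2.5 were UGT87A2 (r = 0.858), ChiC (r = 0.852), PAP20 (r = 0.799), FMO (r = 0.799), ATJ1 (r = 0.789) and Prx37 (r = 0.776). UGT87A2 is a glycosyltransferase, ChiC a class V chitinase, PAP20 a purple acid phosphatase, ATJ1 a DnaJ chaperone and Prx37 a class III peroxidase. UGT87A2 read 8.63, 8.45 and 8.16 in combination roots, 8.63, 8.32 and 8.00 in hypoxia roots, 9.82, 8.18 and 9.61 in arsenic roots, and 5.69, 5.97 and 5.89 in control roots. Like NRT2.5, it was low in control roots and had arsenic array 2 well below the other arsenic arrays. With the group means removed, r of UGT87A2 with NRT2.5 was 0.66, and the range over the 6 genes was 0.21 to 0.66. Between OCT1 and NRT2.5 themselves r was 0.53 (rho 0.67), and 0.03 with the group means removed. Of the 439 genes compared, 94 were more like OCT1 than NRT2.5 was.

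**Figure D3:**
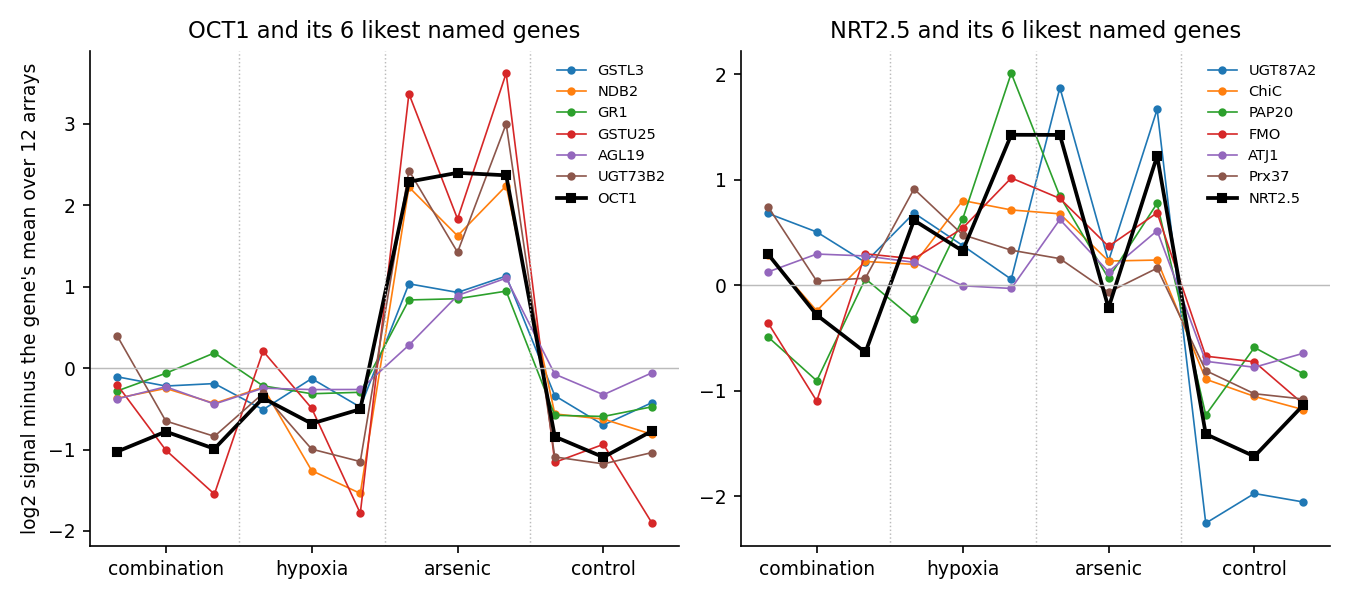
Log2 signal of each array minus the gene's mean over 12 arrays, in the order combination, hypoxia, arsenic and control (3 arrays each), for OCT1 (left, black) and NRT2.5 (right, black) with the 6 named genes most like each. The OCT1 set is raised in the arsenic arrays, and the NRT2.5 set is low in the control arrays.

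Arsenic array 2 touched the 2 genes differently. In NRT2.5 it lay 1.54 log2 units below the mean of the other 2 arsenic arrays, and in OCT1 it lay 0.07 above it. It was the lowest arsenic array in all 6 of the genes most like NRT2.5 and in 4 of the 6 most like OCT1, by 1.66 in GSTU25 and 1.29 in UGT73B2. It was also the lowest arsenic array in 35.2% of all genes, and the genes were picked on these same arrays, so the counts support nothing about NRT2.5 or OCT1. Without that array the rise of NRT2.5 with arsenate was 2.71 in place of 2.20, and the step between combination and arsenic was -1.53 in place of -1.02.

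On the chromosome, the nearest measured genes did not show the pattern of either transporter. Next to OCT1, AT1G73230 stood at -0.30 with arsenate against control (SE 0.16, adjusted p = 0.240), and AT1G73210 on the other side fell by 0.91 (SE 0.20, adjusted p = 0.00677), where OCT1 stood at 3.25. Beside NRT2.5, AT1G12930 and AT1G12960 passed in none of the 7 comparisons by limma, nor at an unadjusted p under 0.05, with differences against control from -0.24 to 0.12. The differences between these genes and the transporters were not tested.

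Of the root hair markers, 3 of 10 were measured, and all 3 fell in the combination (14.6% of all genes fell), under hypoxia (13.7%) and with arsenate (9.58%). The calls with arsenate were lost in 2 of 13 alternatives for EXPA7 and in 4 of 13 for EXPA18. Their summed linear signal was 44.2 to 80.2 in combination arrays, 62.1 to 136 in hypoxia arrays, 187 to 201 in arsenic arrays and 384 to 502 in control arrays. Root hairs belong to the outer cell layer where NRT2.5 is known to act, and the part of such cells in its values was not tested. The summed signal of 3 of 10 green tissue markers was 53.0 to 93.6 in combination, 78.8 to 84.3 in hypoxia, 55.4 to 63.2 in arsenic and 55.5 to 67.9 in control arrays. RCA, the brightest of them, rose under hypoxia by 0.63 (limma adjusted p = 0.0296), where 10.8% of all genes rose. PSAN fell in the combination by 0.72 (adjusted p = 0.0448) and with arsenate by 0.76 (adjusted p = 0.0497), and SBPASE did not pass. These 3 calls were each lost in 4 or more alternatives. The part of green tissue in the results was not tested. No endodermis or stele marker of the list was measured. In whole roots, fewer cells of a type and less RNA per cell cannot be told apart.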

How the data were processed

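Total RNA of 12 root samples was hybridised, 1 array each. Values came deposited on a log2 scale, as RMA output per the submitters' processing notes, which list the Transcriptome Analysis Console (3.1) beside the Affymetrix Expression Console (1.4, 1.4.1). They were analysed without further normalization, and 3 arrays a group limit the precision. Of 38408 rows, 16722 named 1 gene in the platform annotation, 759 named several and 20927 were not listed. Of the first, 16574 matched a RefSeq gene table (TAIR10.1), used for names and neighbours alone. The array's build is not given in the sources used here, so no coordinates are given. For 146 genes with several rows the row with the highest mean was kept, leaving 16550 genes. Limma 3.58.1 in R 4.3.3 (lmFit, eBayes) was fitted to all 12 arrays with group means as coefficients, and p-values were adjusted over all genes by Benjamini-Hochberg, with a threshold of 0.05. The fit was tested on simulated data.

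The members and gene lists were chosen with earlier results of these data known. OCT1 and NRT2.5 have no p-values for that reason. Followed besides them were all measured genes of the NRT1/NPF, OCT and marker lists. Up to 4 of each other list were added by largest change against control. The 6 genes with a symbol most like each member and the nearest measured neighbours were added too. Not every gene followed is given in the text. Of the core hypoxia list, PDC2 and CML38 are given with values, and AlaAT1 and AT4G27450 by name. The 7 pathway lists had 155 entries, of which 26 were measured. Alternatives were re-centred arrays, quantile normalization again, a replicate block, array weights, trend and robust priors, dim genes left out, only the arrays compared, and each array left out. Same-numbered arrays of different groups had correlated deviations over 0.1 in 6 of 18 pairs (median r 0.07). Differently numbered arrays had them in 5 of 36 pairs (median r -0.05). The main fit did not take numbers as pairs, the replicate block was run as an alternative, and what the numbers share was not tested.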

Additional observations from a re-analysis of the deposited data

Results flagged for a closer look

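The effect of arsenate on OCT1 had opposite signs with and without hypoxia, and was picked out because every array took that side. All combination arrays lay below the hypoxia arrays, and all arsenic arrays above the control arrays, with an interaction of -3.67. NRT2.5 had the same arrangement, with an interaction of -3.20 and a gap of 0.03 between combination and hypoxia arrays. Neither difference was tested.

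Of the related genes, 2 loci entered as NRT1/NPF members passed the test of the interaction, where 1.34% of all genes passed upwards. These were AT1G22550 (1.21, SE 0.29, adjusted p = 0.0457) and AT1G72130 (1.04, SE 0.24, adjusted p = 0.0393). Both fell with arsenate, AT1G22550 by 1.43 and AT1G72130 by 0.75, while the combination minus hypoxia was -0.22 and 0.29 and did not pass. The call of AT1G22550 was lost in 11 of 17 alternatives and that of AT1G72130 in 12 of 18, most of them fits without 1 array. AT1G22550 was also dim, with means of 2.61 in combination, 2.83 in hypoxia, 2.41 in arsenic and 3.85 in control roots. The first quartile of the arrays ran from 3.06 to 3.18. How far a low limit of the signal shaped its interaction was not tested.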

How the results depend on the processing

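With each array re-centred on its median, OCT1 stood at 0.56 for hypoxia against control and at -2.70 for hypoxia against arsenic, and the array shifts taken out ran from -0.15 to 0.12. The other differences of OCT1 and NRT2.5 moved by less than 1 SD between replicates in each alternative run. Without 1 array, OCT1 ran from 3.16 to 3.32 (arsenic against control) and from -3.75 to -3.57 (interaction), and NRT2.5 from 1.89 to 2.71 and from -3.71 to -2.88. Between hypoxia and arsenic, NRT2.5 ran from -0.54 to 0.28.

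Of the 26 list genes, 16 passed for arsenic against control, and 9 to 14 without 1 array (9 without arsenic replicate 3, 10 without control replicate 1). For hypoxia against control 14 passed and 11 to 14 without 1 array, and for the combination against control 11 and 11 to 12. For combination against arsenic 7 passed, 12 with array weights and 3 to 6 without 1 array. For combination against hypoxia 1 passed, 2 with trend and robust priors, 2 with dim genes left out, 0 with only the arrays compared (limma) and 1 to 4 without 1 array (4 without hypoxia replicate 1). For hypoxia against arsenic 9 passed, and 5 to 8 without 1 array (5 without arsenic replicate 3). For the interaction 2 passed, 0 after re-centring, 4 with array weights and 0 to 2 without 1 array. Over all genes in the main fit, 8.34% rose and 9.58% fell with arsenic against control. Under hypoxia 10.8% rose and 13.7% fell, and in the combination 13.0% and 14.6%. Against arsenic the shares were 5.33% and 6.67% for the combination, and 9.67% and 12.3% for hypoxia. For the combination against hypoxia 3.46% passed, and for the interaction 1.34% passed upwards. All-gene shares in the alternatives are not given here, so a particular loss among list genes was not tested. Over 47 of the genes followed, 4133 of 4435 alternative values kept their side of the threshold, 209 lost a call, 93 gained one and 0 reversed.

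With deviations from the group means, r of OCT1 with NRT2.5 was 0.0337, with GSTL3 -0.1176, with GSTU25 -0.183 and with UGT73B2 -0.0008. The sample titles give a replicate number and no pairing. Same-numbered arrays of different groups correlated from -0.08 to 0.31 in their deviations (median 0.07). Differently numbered arrays correlated from -0.33 to 0.16 (median -0.05), so same-numbered arrays were somewhat more alike. A replicate block left the differences of both genes as they were (3.25 for OCT1 and 2.20 for NRT2.5, arsenic against control) and 15 list genes past the threshold in that comparison. Each member has 1 row, so the mean of several rows could not be tried for them. Signal near the low end of the arrays limits the control levels of both genes.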
